A study of Mus musculus with 4 samples.

Results

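Transcript levels of 40 cell cycle genes were followed in 4 libraries of CD4 T cells from mice with transfer colitis. The genes were taken by symbol from a table of 16230 genes, and all 40 were found. They were divided by phase into 15 genes of G1/S and DNA replication (Mcm2 to Mcm7, Pcna, Cdc6, Tyms, Tk1, Rrm2, Ccne1, Ccne2, E2f1 and Ccnd2) and 25 genes that act mainly in G2 and mitosis. All 40 passed the filter for testing, a mean of at least 1 FPKM (fragments scaled to transcript length and to library depth).

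The cells came from Rag-/- recipients, which cannot make T or B cells of their own but keep their myeloid, erythroid and natural killer cells. Naive CD4 T cells had been injected 8 weeks before, colitis had developed, and cells positive for CD3 and CD4 were then sorted from the spleen. Donors of the control group (2 libraries) were ERafl/fl, that is, they carried loxP-flanked alleles of Esr1, the gene of estrogen receptor α, and no Cre. Donors of the other group (2 libraries) were CD4creERafl/fl, with the same flanked alleles and a Cre driven from Cd4, which acts in all cells that pass through a CD4-expressing stage in the thymus. Both groups therefore share the flanked alleles, the Rag-/- host, the colitis and the time after transfer. The labels give neither age nor sex, and do not tie each library to its own mouse, so p-values reflect only how far these libraries spread, which may be technical. Esr1 itself stood at 0.23 and 0 FPKM in controls 1 and 2 and at 0 and 1.96 FPKM in the other group. These values do not check the genotype, so the CD4creERafl/fl libraries are named by their label, ERα-deficient.

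A dividing cell passes from G1 through DNA synthesis (S) and G2 to mitosis (M). Cyclin-dependent kinases drive it: cyclins D and E free E2F transcription factors from the retinoblastoma family, and E2F switches on replication genes. Later in the cycle cyclins A and B with Cdk1 take over, and genes of the G2/M group are induced through the MuvB complex with B-MYB and FOXM1, which binds the CHR element of their promoters. Naive T cells rest outside the cycle and divide when activated. In an empty host they divide repeatedly, and the spleen also holds dividing erythroid and myeloid precursors, so these genes do not mark a cell type.

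The libraries were shallow, at an estimated 504000 to 709000 fragments each, and 3 fragments on a transcript of 2000 bases, the limit that a count of 0 allows, were worth 2.11 to 2.98 FPKM. They also differed in cell type markers. Summed FPKM of 18 T cell markers was 1872.5 and 1502.0 in the controls and 400.8 and 325.7 in those labelled ERα-deficient, where 18 of 18 were lower without overlap. Of 19 macrophage markers, 19 were higher without overlap, with sums of 103.0 and 499.0 in the controls and 2882.0 and 3417.9 in the other group. In control 1, 6 of these were at 0 (Adgre1, Cd14, Mertk, Fcgr1, Marco and Timd4). The sorted transcripts Cd4 and Cd3e were present in every library, with Cd3e at 65.48 and 60.22 FPKM in the controls and 9.81 and 10.07 FPKM in the others. In such bulk samples, fewer cells of a type and less RNA per cell cannot be told apart.

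The main feature of the 40 genes was a single library, control 2, in which most of them stood highest. In FPKM as deposited, 33 of the 40 had their highest value there: 10 of 15 G1/S genes and 23 of 25 G2/M genes, against 23.4% of all 12896 genes tested. Control 2 was above control 1 for 13 of 15 and 24 of 25 genes (50.2% of all genes), and at least 2 times control 1 for 8 of 15 and 19 of 25 genes (18.8% of all genes). The median difference between control 2 and control 1 on log2(FPKM + 1) was 1.14 over the G1/S genes and 1.43 over the G2/M genes, against 0.00 over all genes. Control 1 took no single place against the libraries labelled ERα-deficient. It lay above both for 3 G1/S and 12 G2/M genes, between them for 5 and 8, and below both for 7 and 5. Its median difference from their mean was −0.35 for the G1/S genes and 0.16 for the G2/M genes, against 0.07 for all genes. After scaling each library to its T cell markers instead, 0 of 15 and 2 of 25 genes were highest in control 2, against 1.5% of all genes, since that scaling lowers nearly every gene in the controls.

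**Figure D1:**
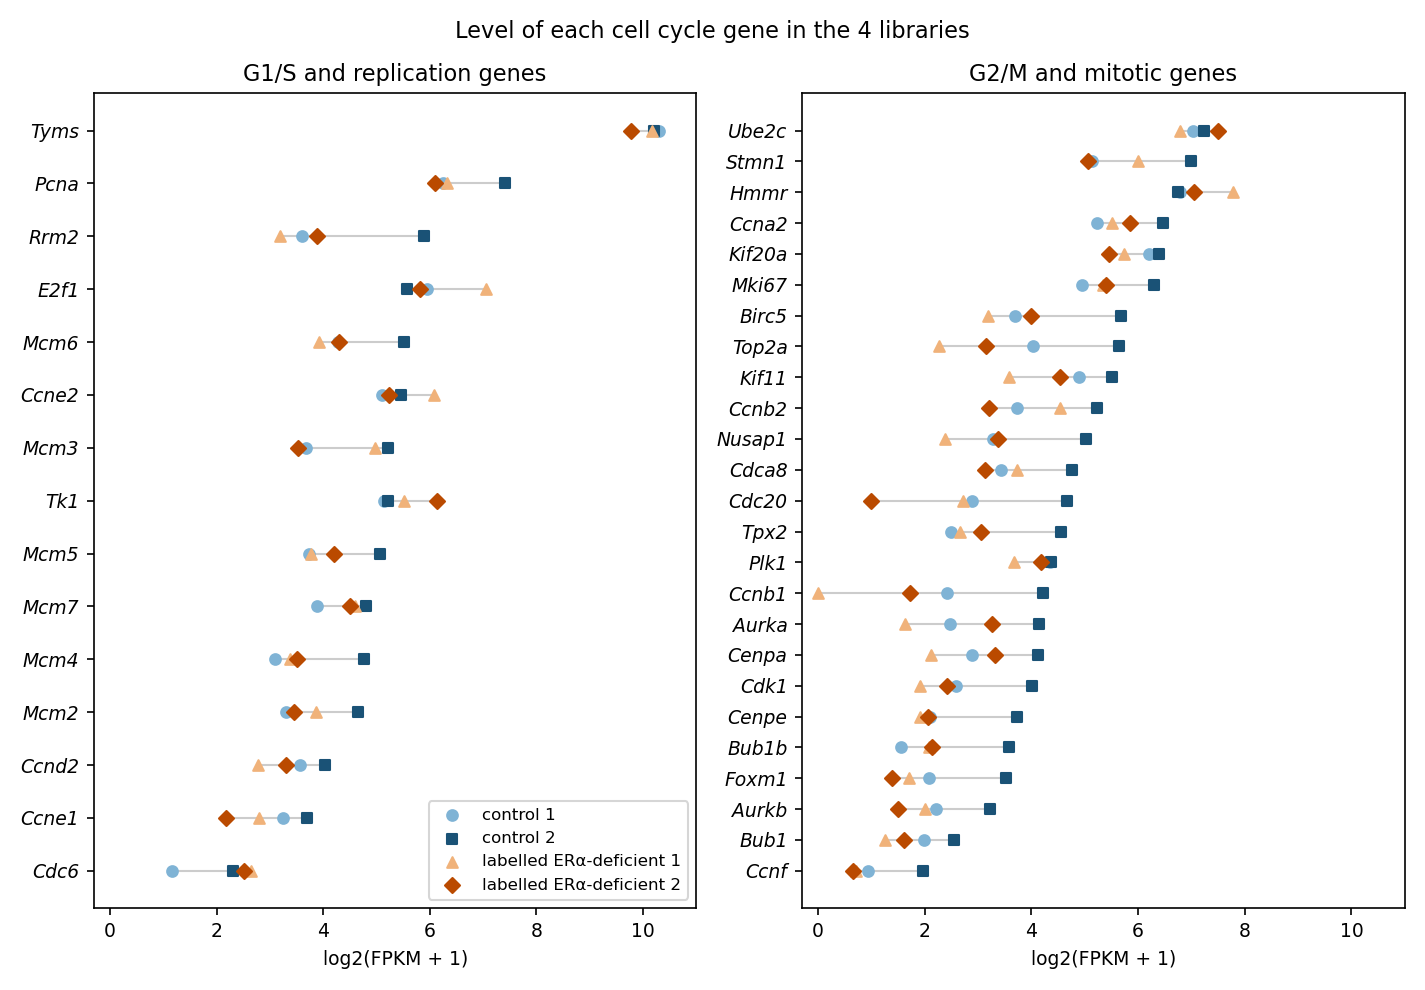
Level of each gene on the horizontal axis, log2(FPKM + 1), with 1 symbol per library and genes ordered by their level in control 2 within each phase. The dark blue square of control 2 lies at the right end for 33 of 40 genes, and the wide gaps of Top2a, Ccnb1, Rrm2 and Cdc20 stand against the tight points of Tyms and Plk1.

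The comparison of the groups asks which transcripts differ when the transferred T cells lack the receptor. No cell cycle gene passed limma's test at an adjusted p under 0.05 in either direction, where 0.0155% of all genes tested were called higher and 0.0388% lower. The smallest adjusted p among the 40 in limma was 0.227, for Top2a, and 2 of the 40, Top2a and Ccnb1, had an unadjusted p under 0.05 in the lower direction (6.8% of all genes; 9.1% in the higher direction, where the 40 had 0). With voom weights on estimated fragments, 0 of 26 genes with an estimate were called, where 87 of all 8093 genes were called higher and 24 lower. Of the 26, 3 had an unadjusted p under 0.05 in that fit, against 1387 of all 8093 genes. On average the libraries labelled ERα-deficient were lower for 10 of 15 G1/S genes and 23 of 25 G2/M genes, against 53.6% of all genes. After scaling to T cell markers these counts were 0 of 15 and 1 of 25, because that scaling raised the median difference of all genes from −0.07 to 2.20. The groups did not overlap, with the controls above, for 3 G1/S genes and 12 G2/M genes (25.7% of all genes), and with the controls below for 2 G1/S genes and 1 G2/M gene (23.2% of all genes). The median difference between groups was −0.32 for G1/S genes and −0.78 for G2/M genes. Single libraries moved these medians: they were 0.35 and −0.16 without control 2, −1.0 and −1.46 without control 1, −0.49 and −0.77 without library 1 labelled ERα-deficient, and −0.12 and −0.87 without library 2.

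**Figure D2:**
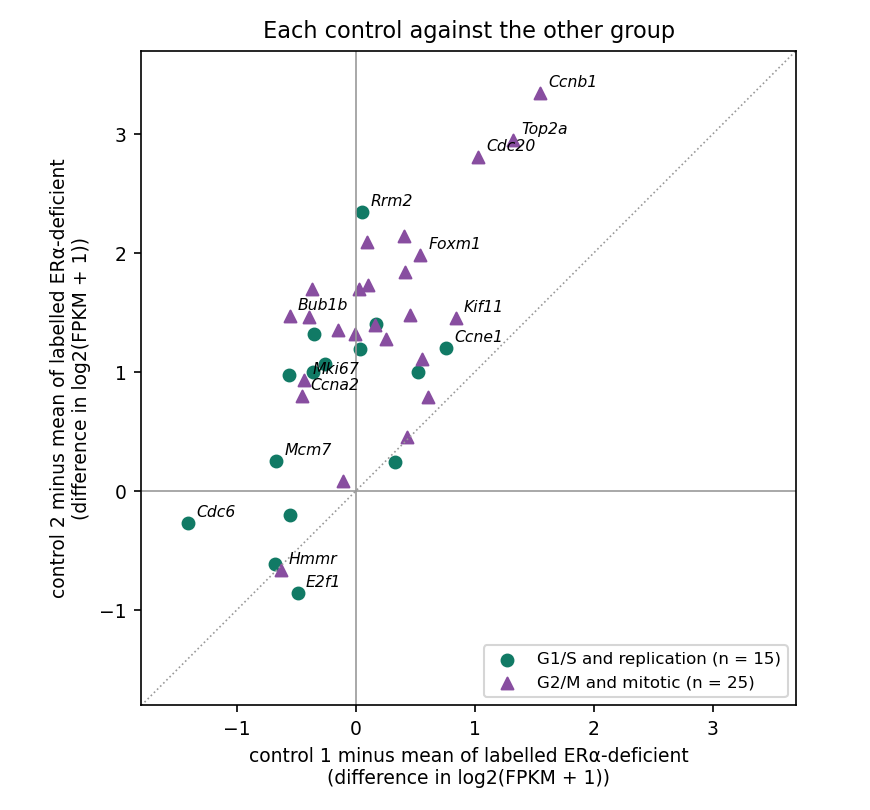
Each control set against the mean of the 2 libraries labelled ERα-deficient, as differences in log2(FPKM + 1), with control 1 on the horizontal and control 2 on the vertical axis; 1 point per gene, circles for G1/S and triangles for G2/M. Most points lie above the dotted line of equal difference and spread around 0 on the horizontal axis, while Top2a, Ccnb1 and Cdc20 are far from 0 on both.

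Promoters divided the genes by phase, a property that the choice of genes did not use. Windows of 300 bases, from 250 before to 50 after a RefSeq transcription start on GRCm38.p6, were found for 31 of the 40 genes. For E2f1, Cdc6 and Aurka the whole window lay inside the annotated gene. The E2f1 window, on the minus strand, ended at 154569676, whereas the gene reaches 154569892. Bases before the outermost start of these genes were therefore not searched. The CHR element, searched as TTTGAA on both strands, was in the windows of 14 of 19 G2/M genes (73.7%) and 1 of 12 G1/S genes (8.3%, Mcm2). It was present for 15.5% of the genes of the table and in 17.9% of all windows of this length. An E2F-type element, searched as TTTCCCGC, TTTCGCGC, TTTGCCGC or TTTGGCGC on both strands, was in 5 of 12 G1/S genes (41.7%: Mcm3, Mcm5, Mcm6, Mcm7 and Cdc6) and 1 of 19 G2/M genes (5.3%, Cdk1), against 4.3% of the table and 2.3% of all windows. CCAAT, the letters bound by NF-Y, was found for 17 of 19 G2/M genes and 7 of 12 G1/S genes, against 42.4% of the genes of the table and 37.4% of all windows. Mcm7 has windows at more than 1 start and was counted once. Overlapping matches were kept, such as 2 E2F-type matches on opposite strands in Mcm6. A match describes letters and is not a measured binding site.

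The 250 bases before the start are shown, 5′ to 3′ in the direction of transcription, for 1 replication gene with E2F-type matches and for 4 mitotic genes with CHR matches whose levels are described below. Capitals mark E2F-type and CHR matches on either strand. Mcm6 (chr1:128359706-128359955, minus strand) has only E2F-type matches. Cdk1 (chr10:69352913-69353162, minus strand) has both kinds. Top2a (chr11:99024190-99024439, minus strand), Cdc20 (chr4:118437344-118437593, minus strand) and Kif11 (chr19:37376132-37376381, plus strand) have only CHR matches.
Mcm6: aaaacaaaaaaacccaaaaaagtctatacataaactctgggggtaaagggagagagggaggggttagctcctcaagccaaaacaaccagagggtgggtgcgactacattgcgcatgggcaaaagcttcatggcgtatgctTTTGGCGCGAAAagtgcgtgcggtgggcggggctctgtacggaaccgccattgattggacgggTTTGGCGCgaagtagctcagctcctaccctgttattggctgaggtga
Cdk1: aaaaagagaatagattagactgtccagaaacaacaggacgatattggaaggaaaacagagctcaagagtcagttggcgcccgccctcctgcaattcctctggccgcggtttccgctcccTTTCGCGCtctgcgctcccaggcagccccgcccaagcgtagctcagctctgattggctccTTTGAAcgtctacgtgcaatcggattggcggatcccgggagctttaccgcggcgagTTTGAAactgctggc
Top2a: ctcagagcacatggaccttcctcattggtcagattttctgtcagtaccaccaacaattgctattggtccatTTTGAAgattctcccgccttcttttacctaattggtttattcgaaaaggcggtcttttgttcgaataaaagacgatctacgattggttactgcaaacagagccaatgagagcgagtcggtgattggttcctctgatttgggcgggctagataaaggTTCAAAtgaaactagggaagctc
Cdc20: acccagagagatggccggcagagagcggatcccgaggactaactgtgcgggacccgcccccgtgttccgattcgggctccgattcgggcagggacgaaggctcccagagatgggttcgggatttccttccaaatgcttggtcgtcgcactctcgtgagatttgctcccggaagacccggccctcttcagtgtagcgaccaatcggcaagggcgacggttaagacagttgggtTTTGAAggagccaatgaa
Kif11: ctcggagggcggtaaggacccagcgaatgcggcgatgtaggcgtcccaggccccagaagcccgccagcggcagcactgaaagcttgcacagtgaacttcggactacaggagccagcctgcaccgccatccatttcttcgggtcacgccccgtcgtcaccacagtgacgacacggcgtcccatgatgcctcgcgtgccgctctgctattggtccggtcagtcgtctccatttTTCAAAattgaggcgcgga

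The CHR element was also set beside the levels. Control 2 was highest for 13 of 15 genes with a CHR match and for 12 of 16 with a window and no match. Their median differences between groups were −0.66 and −0.70 on log2(FPKM + 1). Among the 6 genes with an E2F-type match, control 2 was highest for 5, with a median of −0.31. Ccnb1 and Birc5, which show some of the wide gaps, have no CHR match in their windows.

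**Figure D3:**
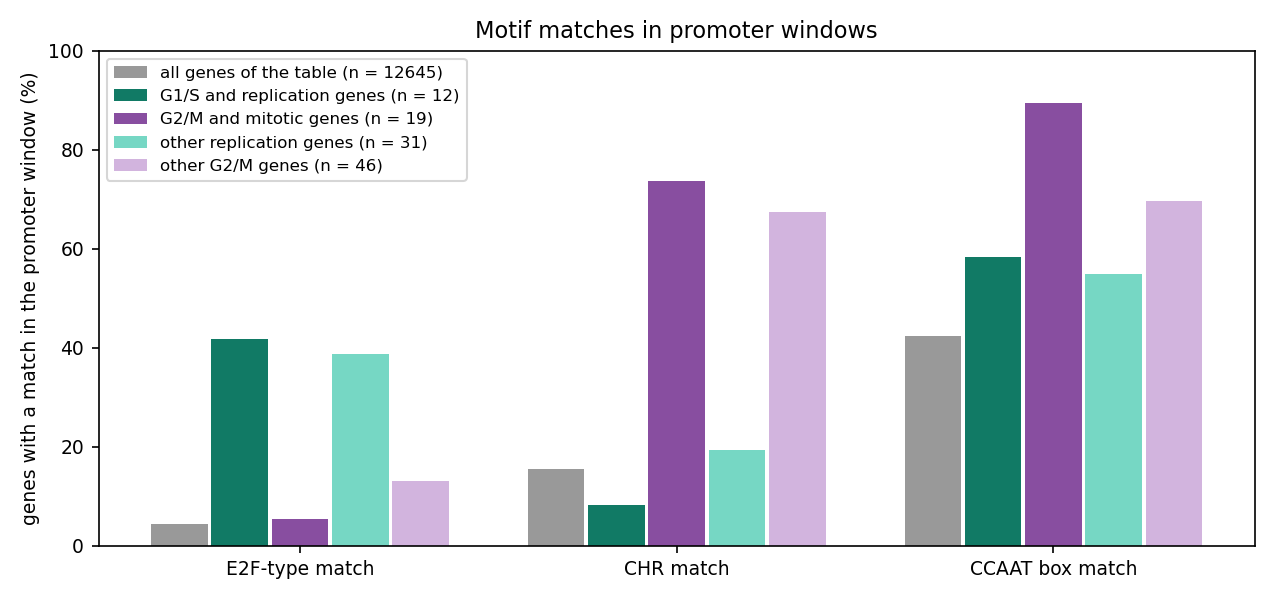
Share of genes with a match in the promoter window, in percent, for 3 elements and 5 gene lists, with the number of genes that have a window in the legend. CHR matches reach 73.7% in G2/M genes and 67.4% in other G2/M genes, and E2F-type matches 41.7% and 38.7% in the replication lists.

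The replicative helicase, loaded on DNA in G1 and active in S phase, is a ring of Mcm2 to Mcm7. All 6 subunits were highest in control 2. Mcm6 stood at 18.40 and 44.63 FPKM in controls 1 and 2 and at 14.06 and 18.69 FPKM in those labelled ERα-deficient. Mcm4 stood at 7.54 and 26.22 FPKM in the controls and 9.39 and 10.42 FPKM in the others. Control 1 had the lowest or next lowest value of each subunit, and the groups overlapped for all 6. Mcm3 was uneven within the second group too, at 30.30 and 10.51 FPKM, beside 11.87 and 36.32 FPKM in the controls. Mcm2, Mcm5 and Mcm7 ranged from 8.85 to 32.51 FPKM.

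Pcna, the sliding clamp that holds DNA polymerases, was at 74.90 and 167.98 FPKM in the controls and 78.59 and 67.70 FPKM in those labelled ERα-deficient. Control 2 held 167 fragments of it (95% Poisson interval 142.6 to 194.3, counting error only) and control 1 held 78 (61.7 to 97.3), so these libraries differed beyond counting error. The group difference was −0.61 ± 0.44 (SE) on log2(FPKM + 1), with a limma adjusted p of 0.536, and −0.04 without control 2. Cdc6, which loads the helicase, went the other way: 1.25 and 3.95 FPKM in the controls and 5.24 and 4.70 FPKM in the other group, a difference of 0.84 ± 0.57 (SE) and a limma adjusted p of 0.518. The groups did not overlap for Cdc6, but its values are low.

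Among genes for DNA precursors, Rrm2, a subunit of ribonucleotide reductase, had the widest spread, at 11.10 and 58.11 FPKM in the controls and 8.17 and 13.85 FPKM in those labelled ERα-deficient. Control 2 alone was high, with 84 fragments (95% interval 67.0 to 104.0) against 9 to 17 in the other libraries. The group difference of −1.20 ± 0.79 (SE, limma adjusted p = 0.508) was −0.05 without control 2. Thymidylate synthase (Tyms), whose transcripts share sequence with 137 other genes, was the most abundant of the 40 and varied little, at 1258.10, 1183.76, 1149.68 and 869.67 FPKM in controls 1 and 2 and the other libraries 1 and 2. Thymidine kinase (Tk1) was at 34.40 and 36.08 FPKM in the controls and 44.58 and 69.40 FPKM in the others, without overlap, with a difference of 0.64 ± 0.34 (SE) and a limma adjusted p of 0.424. So the 3 precursor genes gave 3 patterns.

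Of the G1/S regulators, Ccne1 (cyclin E1) was at 8.52 and 11.91 FPKM in the controls and 5.93 and 3.55 FPKM in those labelled ERα-deficient. The groups did not overlap, and the difference was −0.98 ± 0.45 (SE, limma adjusted p = 0.365). Ccnd2 (cyclin D2, which partners Cdk4 and Cdk6) was at 10.81 and 15.47 FPKM in the controls and 5.82 and 8.91 FPKM in the others, again without overlap. Ccne2 and E2f1 were highest in library 1 labelled ERα-deficient, at 66.94 and 131.59 FPKM. The other 3 libraries lay between 33.51 and 43.02 FPKM for Ccne2 and between 46.77 and 60.65 FPKM for E2f1.

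Cyclins and kinases of the later phases came next. Ccnb1 (cyclin B1, the mitotic partner of Cdk1) was at 4.33 and 17.51 FPKM in the controls, and listed at 0 and at 2.32 FPKM in those labelled ERα-deficient. The values rest on 8 and 29 fragments in the controls and 0 and 3 in the others, with a difference of −2.45 ± 0.88 (SE) and a limma adjusted p of 0.276. Ccnb1 shares up to 1289 bases with transcripts of 6 other genes, so its fragments could be split among copies. Cdk1 was at 4.99 and 15.18 FPKM in the controls and 2.78 and 4.37 FPKM in the others, a difference of −1.13 ± 0.61 (SE, limma adjusted p = 0.432). Without control 2 the differences were −1.55 for Ccnb1 and −0.41 for Cdk1. Control 2 was the high library of both, and control 1 was above both of the others, by little for Cdk1. Ccna2 (cyclin A2) had control 1 lowest, at 36.37 FPKM, and control 2 highest, at 87.95 FPKM, with 44.30 and 56.83 FPKM in the other group. Ccnb2 had 12.18 and 36.36 FPKM in the controls and 22.17 and 8.20 FPKM in the others.

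Ratios within a library do not depend on how libraries are scaled. Cdk1 to Ccna2 was 0.137 and 0.173 in the controls and 0.0628 and 0.0769 in those labelled ERα-deficient, without overlap. Ccnb1 to Ccna2 was 0.119 and 0.199 in the controls and 0 and 0.0408 in the others. Rrm2 to Pcna overlapped between groups, at 0.148 and 0.346 against 0.104 and 0.205. Kif11 to Mki67 was 0.966 and 0.569 against 0.274 and 0.537, and Birc5 to Mki67 was 0.400 and 0.644 against 0.204 and 0.362, so control 2 was close to library 2 labelled ERα-deficient for the former and control 1 for the latter. Cdk1 and Ccnb1 rest on few fragments here, and the 6 ratios, with that of Top2a below, were chosen with the values known and have no test.

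Among chromosome genes, Top2a, the topoisomerase that untangles replicated chromosomes, was at 15.24 and 49.08 FPKM in the controls and 3.79 and 7.82 FPKM in those labelled ERα-deficient. It rests on 56 and 171 fragments in the controls (95% intervals 42.3 to 72.7 and 146.3 to 198.6) and on 10 and 23 in the others (4.8 to 18.4 and 14.6 to 34.5). These are raw fragments, and control 1 was the deepest library, at an estimated 709000 fragments against 504000 and 563000 in those labelled ERα-deficient. The intervals are not adjusted for depth. Whether control 1 lay above both beyond counting error was not tested. The difference was −2.13 ± 0.65 (SE, limma adjusted p = 0.227), −1.32 without control 2, and 0.31 after scaling to T cell markers. Mki67, the proliferation marker that coats mitotic chromosomes, was at 29.70 and 78.02 FPKM in the controls and 39.78 and 41.16 FPKM in the others. Its difference was −0.25 ± 0.50 (SE, limma adjusted p = 0.838) and turned to 0.43 without control 2. The ratio of Top2a to Mki67 was thus 0.513 and 0.629 in the controls and 0.0953 and 0.190 in the other group, without overlap. Cenpa and Cenpe, a centromere histone and a kinetochore motor, were at 16.34 and 12.17 FPKM in control 2, the highest library for both, with the other libraries between 2.78 and 8.99 FPKM.

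Spindle and checkpoint genes mostly had control 2 highest. Kif11, a motor that separates spindle poles, was at 28.69 and 44.43 FPKM in the controls and 10.89 and 22.12 FPKM in those labelled ERα-deficient, a difference of −1.15 ± 0.46 (SE, limma adjusted p = 0.315). Foxm1, a transcription factor of the G2/M program, was at 3.24 and 10.52 FPKM in the controls and 2.25 and 1.62 FPKM in the others. Birc5, a subunit of the chromosomal passenger complex, was at 11.89 and 50.22 FPKM in the controls and 8.12 and 14.89 FPKM in the others. The passenger kinase Aurkb did not overlap between groups, at 3.62 and 8.36 FPKM against 3.03 and 1.81 FPKM, whereas Aurka did overlap, at 4.55 and 16.69 FPKM against 2.11 and 8.52 FPKM. Bub1, Plk1 and Kif20a also did not overlap, although Plk1 was nearly equal in the controls, at 19.42 and 19.69 FPKM, and stood at 11.71 and 17.00 FPKM in the others. Bub1b, Cdca8, Nusap1, Tpx2 and Stmn1 were highest in control 2, at 10.99 to 125.91 FPKM, and overlapped between groups.

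Genes of mitotic exit split. Cdc20, which activates the anaphase-promoting complex, was at 6.42 and 24.41 FPKM in the controls and 5.59 and 1.0 FPKM in those labelled ERα-deficient. These are 8, 29, 5 and 1 fragments, and the difference was −1.92 ± 0.84 (SE, limma adjusted p = 0.346), or −1.03 without control 2. Ccnf (cyclin F) was the scarcest of the 40 genes, at 0.92 and 2.90 FPKM against 0.64 and 0.58 FPKM, on 8 fragments or fewer. Ube2c, the ubiquitin-conjugating enzyme of the same complex, was at 130.38 and 149.09 FPKM in the controls and 108.99 and 180.03 FPKM in the others. Hmmr was 1 of the 2 G2/M genes that were not highest in control 2, Ube2c being the other, and stood at 109.34 and 106.70 FPKM in the controls and 219.33 and 131.52 FPKM in the others.

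Sequence shared with other genes was counted, with limits chosen after the values were seen. Of the 40 genes, 7 (Mcm5, Tyms, E2f1, Birc5, Kif11, Hmmr and Ube2c) share a stretch of 50 bases with transcripts of at least 10 other genes, and 11 overlap exons of a neighbour by at least 50 bases. With strand use unknown, for these 18 genes fragments could belong to other transcripts. Control 2 was highest for 21 of the 22 genes with neither property and for 12 of the 18 with either. The part of shared sequence in this was not tested, and some of the 22 share sequence with fewer genes, such as Pcna (up to 712 bases) and Ccnb1. Tyms, E2f1, Hmmr and Ube2c are in the first set of 7, and Tk1 and Ccne2 are among the 11, whereas Cdc6 is in neither, although it shares up to 648 bases with 1 other gene. Over the 22 genes the median differences between groups were −0.55 for G1/S and −0.81 for G2/M.

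Cell cycle genes outside the 40 mostly had control 2 highest as well, in FPKM as deposited but not after T cell scaling. Of 40 other replication genes, 31 were highest in control 2 (77.5%), and of 54 other G2/M genes 48 (88.9%). Of 23 tested kinases, pocket proteins and E2F factors, 14 were highest there (60.9%), and of 17 tested inhibitors and antiproliferative genes, 6 (35.3%). The share over all genes tested was 23.4%. After T cell scaling the counts of the 4 lists were 0, 3, 0 and 0, against 1.5% of all genes. With limma on FPKM as deposited, 0 genes of these 4 lists were called in either direction. With voom weights 0 were called, of 24, 37, 11 and 13 genes with an estimate. After T cell scaling limma called 25, 18, 14 and 14 higher and 0 lower, where 9547 of all 12896 genes were called higher. At an unadjusted p under 0.05 in limma, as deposited, 4, 10, 1 and 0 were lower (6.8% of all genes). In the higher direction these counts were 1, 0, 1 and 0 (9.1% of all genes). The median differences between groups of the 4 lists were −0.35, −0.89, −0.25 and −0.46, against −0.07 for all genes. After T cell scaling they were 1.98, 1.41, 1.85 and 2.08, against 2.20.

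**Figure D4:**
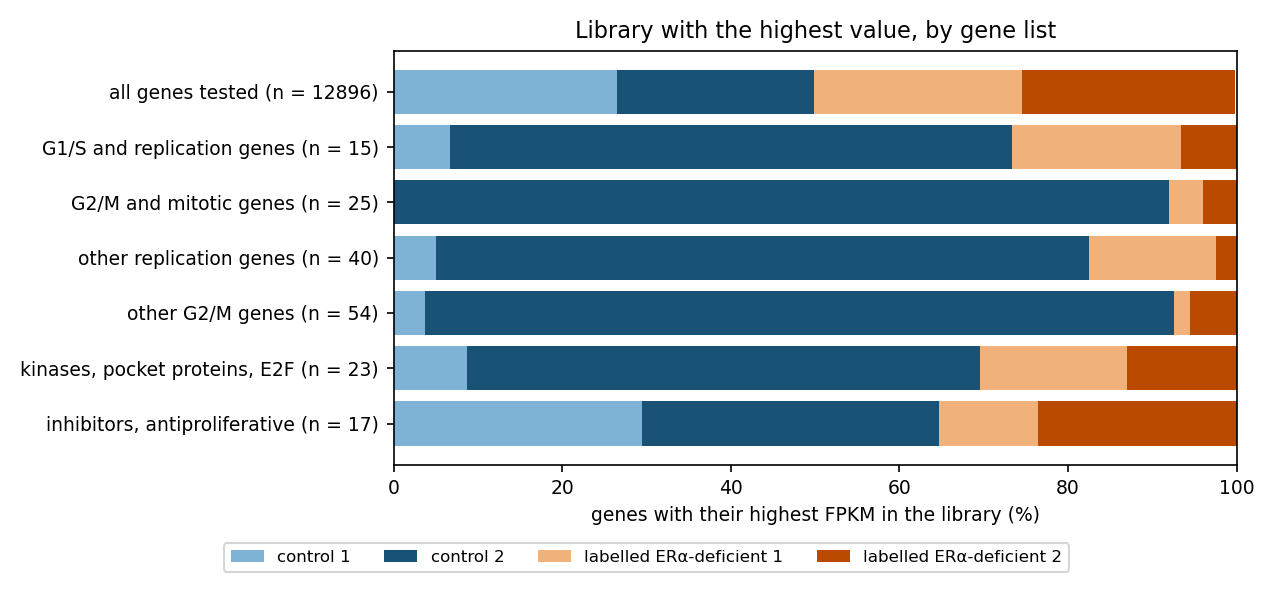
Share of genes, in percent, whose highest FPKM lies in each library, for all genes tested and 6 cell cycle lists. The dark blue part of control 2 takes 92.0% of the G2/M genes and 66.7% of the G1/S genes, against 23.4% of all genes.

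Clspn (claspin, a fork checkpoint adaptor) was at 32.30 and 17.24 FPKM in the controls and 4.73 and 3.90 FPKM in those labelled ERα-deficient, and here control 1 was the higher control. Its difference was −2.22 ± 0.45 (SE, limma adjusted p = 0.146). Cdc25b, a phosphatase that activates Cdk1, was at 19.60 and 17.30 FPKM against 3.28 and 4.71 FPKM, a difference of −1.97 ± 0.40 (SE, limma adjusted p = 0.144). Its controls were close to each other. Mad2l1, a spindle checkpoint protein, was at 11.69 and 19.26 FPKM against 3.49 and 1.04 FPKM, and Cdca2 at 3.31 and 8.37 FPKM against 0 in both. Rpa1 (single-strand DNA binding) and Dnmt1 (maintenance of DNA methylation) were also lower without overlap, with limma adjusted p of 0.242 and 0.267.

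Ccnd1 (cyclin D1) went against the list, at 11.62 and 14.94 FPKM in the controls and 33.40 and 43.59 FPKM in those labelled ERα-deficient, a difference of 1.47 ± 0.35 (SE, limma adjusted p = 0.168). Its relatives Ccnd2, above, and Ccnd3, at 35.22 and 40.33 FPKM against 43.15 and 26.13 FPKM, did not share this pattern. Rbl2 (p130, a pocket protein of resting cells) was at 29.26 and 28.85 FPKM against 12.34 and 7.02 FPKM (limma adjusted p = 0.183), and Rbbp4, a subunit of MuvB, at 19.32 and 20.01 FPKM against 5.85 and 12.83 FPKM. Cdk4, Cdk6 and Rb1 had limma adjusted p values of 0.966, 0.805 and 0.738. Among the inhibitors, Cdkn1b (p27, which holds T cells in rest) was at 28.57 and 24.97 FPKM against 16.57 and 17.11 FPKM, and Cdkn1a (p21) at 2.25 and 3.94 FPKM against 5.23 and 2.82 FPKM. Btg2 and Gadd45a, both antiproliferative, were higher without overlap, at 30.91 and 46.27 FPKM and at 13.22 and 20.78 FPKM in those labelled ERα-deficient, and Btg1 varied from 29.59 to 79.44 FPKM.

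Markers of other spleen cells differed between the controls as well. Of 16 erythroid markers, 8 were highest in control 2 and 14 lowest in control 1, where Hba-a2 was among those at 0. Summed erythroid FPKM was 282.4 and 8312.3 in the controls and 6621.4 and 5217.9 in those labelled ERα-deficient. Hbb-bs was at 83.27 and 3579.49 FPKM in the controls and 2744.19 and 2226.57 FPKM in the others, and Tfrc, the transferrin receptor, at 5.20 and 23.31 against 9.64 and 13.71 FPKM. So the erythroid list separated control 1 from the other 3 libraries, while most cell cycle genes were highest in control 2. Summed neutrophil markers (14 genes) were 2117.6 and 4448.2 FPKM in the controls and 5900.3 and 7860.2 FPKM in the others, with 2 markers at 0 in control 1. Summed dendritic cell markers (12 genes) were 132.7 and 1330.3 FPKM in the controls and 4068.1 and 4192.4 FPKM in the others, with 4 at 0 in control 1. The part of erythroid, macrophage, neutrophil or dendritic cells in the cell cycle result was not tested.

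**Figure D5:**
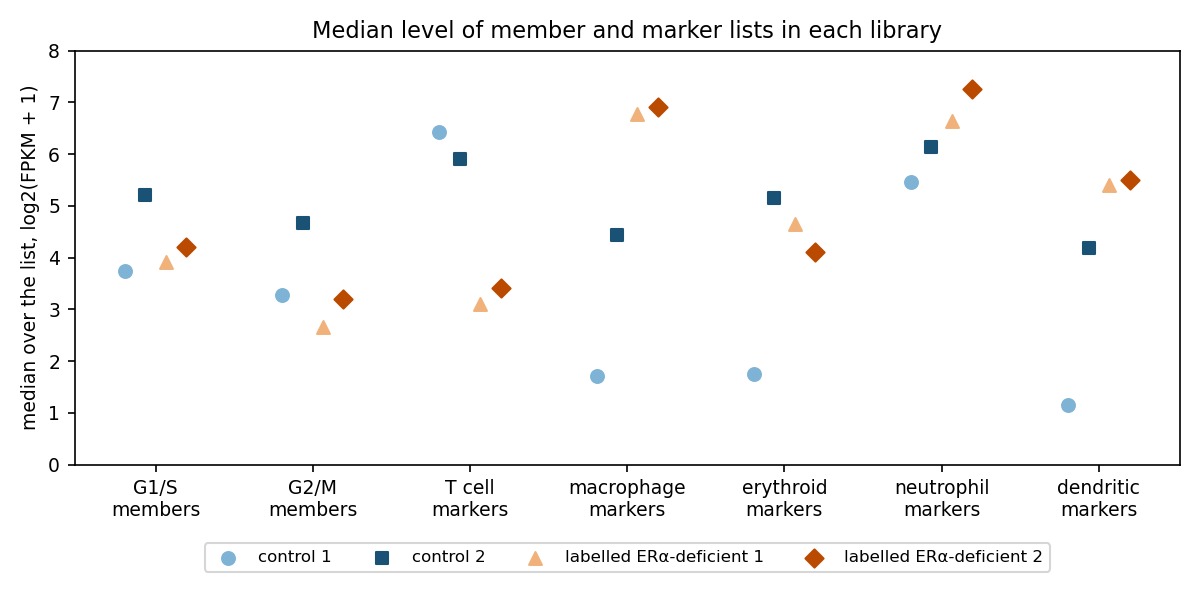
Median level over each list in each library, log2(FPKM + 1), for the 2 phases and 5 marker lists. Control 2 is the top point for both phases, while the T cell, macrophage, neutrophil and dendritic lists separate the groups and the erythroid list sets control 1 apart at the bottom.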

How the data were processed

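Values are FPKM in 4 libraries, computed and deposited by the authors; the submitters' processing notes name HISAT, Bowtie2, RSEM and mm10, without versions. Strand use (not given in the sources used here) was not known. 23 symbols turned into dates were restored from gene identifiers, of which 16183 matched GRCm38.p6.

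Genes with a mean of at least 1 FPKM (12896) were fitted with limma 3.58.1 (R 4.3.3) on log2(FPKM + 1), group as the only term, with a trend, two-sided, Benjamini-Hochberg adjusted over all of them, called at 0.05. Differences are labelled ERα-deficient minus control and understate low genes. Recovery of set fold changes was checked by simulation with an assumed spread between libraries. That spread was not taken from these data, so the simulation does not show how the test performs on them. The smallest two-sided exact permutation p for 4 libraries is 0.33, so none is given. Fragments were estimated from FPKM steps of single-transcript genes. Of the values that came to a few fragments, 78.0% to 79.6% came within 0.2 of whole. The step was chosen on the same genes to bring such values near whole numbers, so this share is not an independent check. Intervals cover counting error only. Alternatives were another pseudocount, filters, no trend, 3 scalings, a replicate block, voom on the estimated fragments and leaving out each library.

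The 40 genes and the lists were chosen with earlier results of these data known. Beyond the 40, named genes are the 3 with the smallest unadjusted p in each of 4 other lists, plus Ccnd3, Cdk4, Cdk6, Rb1, Cdkn1a, Cdkn1b, Btg1 and Esr1; markers named as examples, and those at 0, were chosen after their values were seen. Sequences are from RefSeq. 1 marker gene counted in its list is not reported here by name.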

Additional observations from a re-analysis of the deposited data

How the results depend on the processing

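Over all genes, calls (2 higher and 5 lower) were 0 and 0 with a pseudocount of 0.1, with no filter, with no trend, with the replicate block and without any 1 library, and 0 higher at a mean of at least 5 FPKM. They were 87 and 24 with voom weights and 9547 and 33 after scaling to T cell markers, which raised the median of all genes to 2.20. Of the 40 genes, 14 G1/S and 20 G2/M genes were fitted at a mean of at least 5 FPKM, and 8 and 18 with voom weights. With all 4 libraries, 0 of the 40 genes that each setting fitted were called, except under T cell scaling. There 21 of the 40 were called higher, against 9547 of all 12896 genes tested. With voom weights the smallest limma adjusted p among the 8 G1/S and 18 G2/M genes fitted was 0.118. T cell scaling gave medians of 2.14 for G1/S and 1.43 for G2/M genes, 0 and 1 genes lower on average, 0 and 2 highest in control 2, and 0 and 0 lower without overlap. It turned the differences of Top2a (0.31), Cdc20 (0.26), Cdk1 (1.10), Kif11 (1.43), Mki67 (2.37), Rrm2 (1.30), Pcna (2.05), Ccne1 (1.35), Cdc25b (0.42) and Clspn (0.22). Relative to the median of all genes, the G2/M median was −0.71 as reported and −0.77 after T cell scaling, and the G1/S median −0.25 and −0.06.

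The G1/S median exceeded the G2/M median by 0.46. This gap stayed above 0 in 11 of 11 alternatives that can move it. No filter, no trend and the replicate block leave it as it is. The alternatives reuse the same libraries and genes, so their shared sign is not independent support. T cell and median-ratio scaling divide each library by 1 factor, so they move the gap only through the pseudocount. The gap was 0.71 with T cell scaling, 0.69 with a pseudocount of 0.1 and 0.32 with voom weights. Over the 22 genes that share sequence with fewer than 10 genes and overlap no neighbour (chosen after seeing the data) it was 0.26. When 1 library was left out it was 0.28 to 0.75. Leaving out a library gave 6 to 11 G1/S genes lower on average, the fewest without control 2, and −0.93 to 0.43 for Mki67. Libraries with the same replicate number showed no shared shift over all genes (correlation of deviations −0.002). With so few libraries this cannot show whether equal numbers shared an animal or a day. The replicate block called 0 of the 40 genes. The low depth limits genes under about 3 fragments, such as Ccnb1 and Ccnf.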
